A study of Homo sapiens with 6 samples.

Results

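Metallothioneins are small cysteine-rich proteins that bind zinc and copper, and the genes described here are those of the human MT1 and MT2 family found in the expression table, together with MTF1, the zinc-sensing transcription factor of this system. The members were chosen by gene symbol from a list of 7 names. Of these, 5 were rows of the table, namely MT2A, MT1E, MT1F, MT1X and MTF1, out of 12829 genes in all; MT1G and MT1M are not analysed here. RNA was sequenced from HaCaT, an immortalised, aneuploid human keratinocyte line of epidermal origin, in 3 libraries of cells with a short hairpin RNA against the scaffold gene IQGAP2 (labelled IQGAP2 knockdown) and 3 libraries of control cells (labelled normal control and wild type). All cells were grown in DMEM with fetal bovine serum. The labels do not say whether the controls carried a non-targeting hairpin, how many hairpins were used, or whether the knockdown cells were a clone. They call the libraries biological replicates without naming separate cultures. The p-values set the difference between groups against the spread among these libraries, which may be technical only.

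Cells use metallothioneins to hold excess zinc and copper and to take up cadmium and other toxic metals, and their thiols also react with oxidants. Zinc binds the zinc fingers of MTF1, which then occupies metal response elements (MREs) in the promoters of metallothionein genes and of SLC30A1, the exporter that moves zinc out of the cytosol through the plasma membrane. Glucocorticoids and inflammatory cytokines are further known inducers of metallothioneins. In skin, zinc and metallothioneins are best known from proliferating basal keratinocytes and from wound edges.

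Values below are FPKM, fragments per kilobase of gene scaled by the authors for sequencing depth, given as mean ± SD (n = 3) or for replicates 1, 2 and 3 in that order. A log2 change is the knockdown mean of log2(FPKM + 1) less the control mean, and the added 1 shrinks it for genes of low level. Adjusted p-values come from limma over the 11214 genes averaging 0.5 FPKM or more, with a threshold of 0.05; all 5 members passed this filter. Whole reads could be worked out from the FPKM steps, and summed to between 12901037 and 15360759 per library in the knockdown group and between 13957447 and 15122470 in the control group. IQGAP2 had 2, 4 and 2 reads in knockdown libraries and 24, 22 and 21 in control libraries (log2 change -0.22, limma adjusted p = 0.0217; exact two-sided permutation test p = 0.1, the smallest that 3 against 3 allow), and the limma call was lost without knockdown replicate 3 or without any of the control libraries (adjusted p = 0.0519 to 0.0556). Keratinocyte markers were present in all 6 libraries, with summed levels of 4232 to 4622 FPKM in the knockdown group against 4068 to 4174 FPKM in the control group. The 3 fibroblast markers in the table (DCN, COL1A1 and LUM, of 6 listed) summed to 1.56 to 1.91 FPKM in the knockdown group against 3.46 to 3.79 FPKM in the control group, without overlap; the part of this in the results was not tested. Melanocyte (1 of 4 in the table) and endothelial markers (2 of 3) each summed to under 1 FPKM in every library, and 0 of 4 leukocyte markers were in the table. Knockdown replicate 2 stood apart: log2 values of 6842 genes differed from those of the other knockdown libraries with an SD of 0.17 and 0.18, against 0.10 between knockdown replicates 1 and 3 and 0.09 to 0.10 between controls.

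The coding sequences of the 4 metallothionein genes are shown because their likeness limits how well short reads can be assigned to each gene. All 4 lie on the plus strand of chromosome 16 in GRCh38 with 3 coding exons each (GENCODE v29). From start to stop codon they occupy chr16:56608656-56609354 for MT2A, chr16:56625852-56626971 for MT1E, chr16:56658059-56659164 for MT1F and chr16:56682541-56684049 for MT1X, introns included. Each is written 5′ to 3′, with the in-frame cysteine codons (TGC and TGT) in capitals.
MT2A: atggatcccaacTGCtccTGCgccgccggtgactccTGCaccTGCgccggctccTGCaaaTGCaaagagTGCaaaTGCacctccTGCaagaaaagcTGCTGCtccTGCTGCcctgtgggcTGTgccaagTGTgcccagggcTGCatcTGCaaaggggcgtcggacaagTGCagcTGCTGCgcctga
MT1E: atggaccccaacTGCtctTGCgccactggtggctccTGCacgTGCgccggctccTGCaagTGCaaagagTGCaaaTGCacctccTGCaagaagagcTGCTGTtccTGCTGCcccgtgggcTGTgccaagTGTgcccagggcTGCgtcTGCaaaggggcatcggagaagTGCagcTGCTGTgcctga
MT1F: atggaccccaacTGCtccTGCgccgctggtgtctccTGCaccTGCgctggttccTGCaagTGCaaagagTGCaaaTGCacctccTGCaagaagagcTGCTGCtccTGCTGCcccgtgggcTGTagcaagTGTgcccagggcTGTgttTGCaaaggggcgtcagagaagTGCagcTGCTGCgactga
MT1X: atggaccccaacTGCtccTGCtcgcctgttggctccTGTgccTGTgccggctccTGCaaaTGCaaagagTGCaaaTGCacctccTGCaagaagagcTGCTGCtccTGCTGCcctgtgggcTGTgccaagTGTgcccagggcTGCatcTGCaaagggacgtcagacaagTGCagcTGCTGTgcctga
Each open reading frame had 61 codons before the stop, 20 of them (32.8%) for cysteine, and the capitals fall at the same places in all 4. Identity over the 186 bases was between 88.7% (MT1F with MT1X) and 92.5% (MT2A with MT1E, and MT2A with MT1X). The longest stretch without a mismatch was 63 bases for MT2A with MT1X, 53 for MT1F with MT1X, and 32 for MT2A with MT1E. How the counting treated reads that matched several of these genes, or the pseudogenes and other MT1 genes of the same cluster, is not given in the sources used here, so the split of reads among the members is uncertain.

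MT2A, the most abundant metallothionein transcript of these cells, was lower in the knockdown, and the less abundant MT1F was lower too, while no change of MT1E passed the test. MT2A (ENSG00000125148) was at 265, 196 and 287 FPKM in knockdown libraries and at 418, 473 and 483 FPKM in control libraries. All 3 knockdown values lay below the lowest control value. The means were 249 ± 47.5 FPKM in the knockdown group against 458 ± 35.0 FPKM in the control group, 0.544 of the control level (log2 change -0.89, SE 0.12, limma adjusted p = 1.80e-04). Behind these values stood 3144, 2768 and 3652 reads in knockdown and 5820, 6107 and 6208 reads in control libraries, so counting error was small beside the spread between libraries. In bulk RNA, a lower level per cell and fewer cells expressing the gene cannot be told apart.

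MT1E (ENSG00000169715), the second most abundant member, was at 101, 78.1 and 89.0 FPKM in knockdown libraries and at 88.6, 99.3 and 104 FPKM in control libraries. The groups overlapped, and the difference did not pass (log2 change -0.13, 95% interval -0.33 to 0.07, limma adjusted p = 0.253). Its sign depended on the scaling, at 0.039 with libraries rescaled to a common sum and 0.11 with the length trend removed, and leaving out knockdown replicate 1 made it pass as lower (log2 change -0.22, limma adjusted p = 0.0408; 0.0408 to 0.705 over all alternatives). No direction is given for MT1E.

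MT1F (ENSG00000198417), another zinc-binding MT1 isoform, was at 9.93, 5.97 and 9.18 FPKM in knockdown libraries, against 12.7, 11.8 and 12.9 FPKM in control libraries. The groups did not overlap. The level was 0.671 of that in control (log2 change -0.55, SE 0.14, limma adjusted p = 0.00681). Knockdown replicate 2 gave the lowest value, and without it the log2 change was -0.35 (limma adjusted p = 5.98e-04).

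MT1X (ENSG00000187193) was the lowest metallothionein, at 1.29, 1.91 and 2.24 FPKM in knockdown libraries, against 2.89, 2.05 and 3.21 FPKM in controls. These are 29, 51 and 54 reads against 76, 50 and 78 reads, and the groups overlapped because control replicate 2 lay among the knockdown values. Its difference passed only narrowly (log2 change -0.40, SE 0.14, limma adjusted p = 0.0361). The call was lost without knockdown replicate 1, control replicate 1 or control replicate 3 (log2 changes of -0.26, -0.36 and -0.31), and also with libraries rescaled to a common sum, with the length trend removed or with voom on the recovered reads. Adjusted p ran from 0.0109 to 0.230 over all alternatives.

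Of the 4 metallothionein genes, 3 were thus called lower and 0 higher by limma (0 higher also at an unadjusted p under 0.05, and by voom). Over the alternatives 2 or 3 were called lower; without knockdown replicate 1 the count was 3 with MT1E in place of MT1X. Of all genes tested, 27.8% were called lower, 29.5% higher and 57.4% in either direction, so a call in itself was common in this comparison. Groups without overlap were more common still, with the knockdown lower in 31.4% of genes, higher in 33.7% and either way in 65.1%; MT2A and MT1F were among the lower ones. A log2 fall at least as large as that of MT2A was seen in 141 of the 11214 genes, MT2A included. The added 1 shrinks the falls of genes of low level, so this count leaves out some with as large a fall in FPKM ratio.

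**Figure D1:**
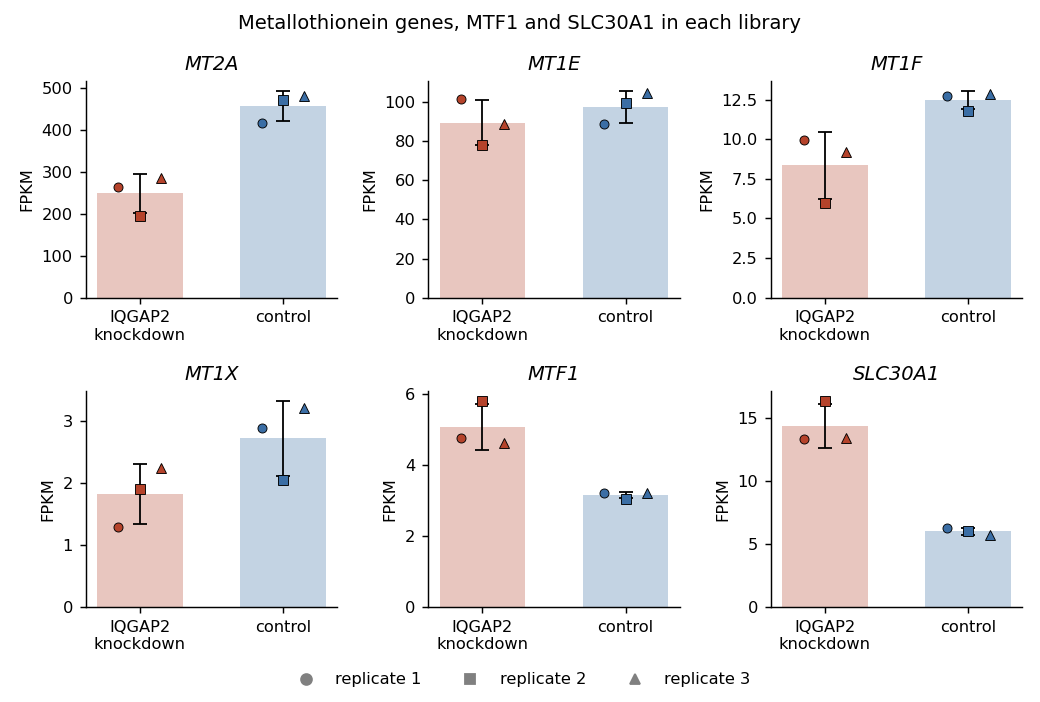
FPKM (vertical axes, each from 0) of MT2A, MT1E, MT1F, MT1X, MTF1 and SLC30A1 in knockdown and control libraries; points are libraries, with a marker shape per replicate number, bars are means and error bars are SD (n = 3). Knockdown values of MT2A (196 to 287 FPKM) and MT1F lie below all controls, those of MTF1 and SLC30A1 lie above all controls, and the groups overlap for MT1E and MT1X.

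MT2A made up a smaller share of the metallothionein pool in every knockdown library than in any control library. Summed over the 4 genes the level was 377, 282 and 387 FPKM in knockdown libraries and 522, 586 and 603 FPKM in control libraries, a ratio of 0.611 between the means. As a share of all FPKM in a library this was 0.152%, 0.120% and 0.156% in the knockdown and 0.192%, 0.213% and 0.220% in the control. MT2A made up 69.5% to 74.1% of the sum in knockdown libraries, against 80.0% to 80.7% in control libraries. The ratio of MT2A to MT1E, which no scaling of whole libraries can change, was 2.61, 2.50 and 3.22 in knockdown libraries and 4.71, 4.76 and 4.62 in control libraries. The groups did not overlap, with a log2 difference of -0.77 (exact two-sided permutation test, p = 0.1, as low as this design can reach).

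The order of the levels was the same in both groups among the metallothioneins: MT2A was highest, then MT1E, MT1F and MT1X, and the ranges of neighbours in that order did not overlap within either group. MTF1 came between MT1F and MT1X in the knockdown, and its range overlapped that of MT1X in the control. FPKM rests on the gene length used by the authors, and the recovered reads imply lengths of 914 bases for MT2A, 1052 for MT1E, 1852 for MT1F and 1727 for MT1X. The coding transcripts behind the sequences above are shorter, at 786, 704, 690 and 450 bases. Per kilobase of those transcripts the mean was 4056, 1876, 313 and 99.3 reads for MT2A, MT1E, MT1F and MT1X in knockdown libraries and 7691, 2103, 485 and 151 reads in control libraries, in the same order of genes but with smaller gaps below MT1E.

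MTF1, the sensor, went the other way. MTF1 (ENSG00000188786, GRCh38 chr1:37809567-37859620, minus strand) was at 4.77, 5.81 and 4.62 FPKM in knockdown libraries and at 3.21, 3.06 and 3.21 FPKM in control libraries. Every knockdown library was above every control library, with 495, 718 and 514 reads in the knockdown and 391, 345 and 361 in the control. The ratio of means was 1.60 (log2 change 0.54, SE 0.083, limma adjusted p = 3.84e-04). Without knockdown replicate 2, the highest, the log2 change was 0.45 (limma adjusted p = 2.54e-04). These are levels of the transcript, and MTF1 is regulated largely as a protein, by zinc binding and entry into the nucleus, which was not measured here.

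SLC30A1, the zinc exporter known as the other classic MTF1 target, was higher in the knockdown while MT2A was lower. It was at 13.3, 16.4 and 13.4 FPKM in knockdown libraries, against 6.29, 6.02 and 5.78 FPKM in control libraries. The groups were far apart, with a ratio of 2.38 (log2 change 1.12, SE 0.079, limma adjusted p = 3.17e-06). Promoter windows from RefSeq (GRCh38.p14) were at hand for MT2A, MT1X, MTF1 and SLC30A1, and not for MT1E and MT1F. The 250 bases upstream of the RefSeq start are shown for both metallothioneins and for SLC30A1, since these genes share a known regulator. Capitals mark the MRE core, searched on both strands as TGCACNC and TGCGCNC, with overlapping matches counted separately. The MT2A window is chr16:56608334-56608583 (plus strand), that of MT1X is chr16:56682220-56682469 (plus strand) and that of SLC30A1 is chr1:211579162-211579411 (minus strand).
MT2A: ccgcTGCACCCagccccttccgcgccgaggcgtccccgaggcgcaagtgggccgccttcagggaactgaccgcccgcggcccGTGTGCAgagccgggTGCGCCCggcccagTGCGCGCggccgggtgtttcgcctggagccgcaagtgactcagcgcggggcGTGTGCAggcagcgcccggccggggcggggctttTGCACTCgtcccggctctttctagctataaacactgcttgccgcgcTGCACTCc
MT1X: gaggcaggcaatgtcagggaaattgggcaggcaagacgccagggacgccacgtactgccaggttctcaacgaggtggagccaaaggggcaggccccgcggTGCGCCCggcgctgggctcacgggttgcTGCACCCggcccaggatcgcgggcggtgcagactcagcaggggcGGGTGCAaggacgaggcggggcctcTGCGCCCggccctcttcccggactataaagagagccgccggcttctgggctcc
SLC30A1: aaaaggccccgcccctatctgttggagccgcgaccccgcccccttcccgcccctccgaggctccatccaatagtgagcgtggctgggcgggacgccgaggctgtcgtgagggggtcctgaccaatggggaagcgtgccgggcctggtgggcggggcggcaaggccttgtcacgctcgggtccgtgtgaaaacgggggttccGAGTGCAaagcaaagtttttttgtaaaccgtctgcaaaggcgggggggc
The MT2A window held 7 matches, that of MT1X 4, that of SLC30A1 1 and that of MTF1 0. Among 35116 RefSeq windows of the same length, 24.8% held at least 1 match, 0.370% at least 4 and 0.0313% at least 7. Both metallothionein windows also held a TATA box (TATAAA, in 10.7% of windows), and the SLC30A1 window did not. The core of the antioxidant response element (TGACNNNGC, in 10.9% of windows) matched once each in the windows of MT2A, MT1X and SLC30A1. The matches are letters of the reference, not measured binding, and the windows leave out any element further upstream or in the transcribed part. The windows depend on the annotated start. GENCODE v29 also lists MT2A and MT1X transcripts that start upstream of the RefSeq start, at positions 56608199 and 56682424, and it starts SLC30A1 at 211578742, downstream of the RefSeq start, so the SLC30A1 window does not adjoin that start.

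Exonic gene length went with these differences. The 4 metallothionein genes fell in the shortest decile of tested genes by exonic length, where the median log2 change was -0.19. MT1E, at -0.13, lay above that median. MTF1 fell in the eighth decile, where the median was 0.08. With the trend over length removed from each library, the log2 change was -0.68 for MT2A, -0.37 for MT1F, 0.45 for MTF1 and 1.10 for SLC30A1, and all of these passed (limma adjusted p of 9.67e-05, 0.0186, 3.67e-04 and 1.01e-06). The total of FPKM differed too, at 234624 to 248082 in knockdown and 271372 to 274709 in control libraries. Rescaling to a common sum moved the median log2 change of all genes from 0.01 to 0.14, and the values then were -0.73 for MT2A, -0.40 for MT1F, 0.67 for MTF1 and 1.27 for SLC30A1.

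**Figure D2:**
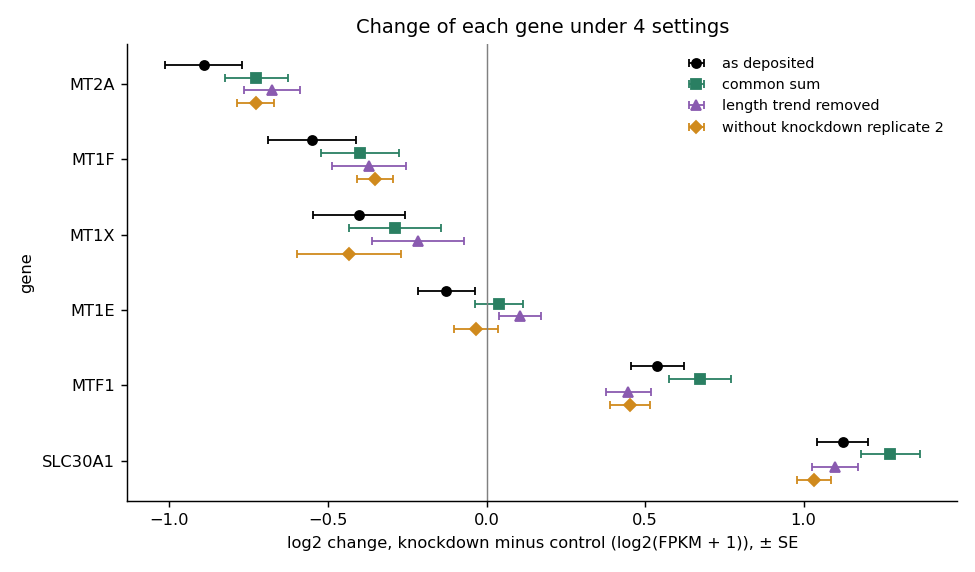
Log2 change (knockdown minus control, log2(FPKM + 1) scale, horizontal axis) of 6 genes under 4 settings; points are estimates of limma and bars are ± SE. MT2A stays between -0.89 and -0.68 and MTF1 between 0.45 and 0.67 in the settings drawn, while MT1E lies on both sides of 0.

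**Figure D3:**
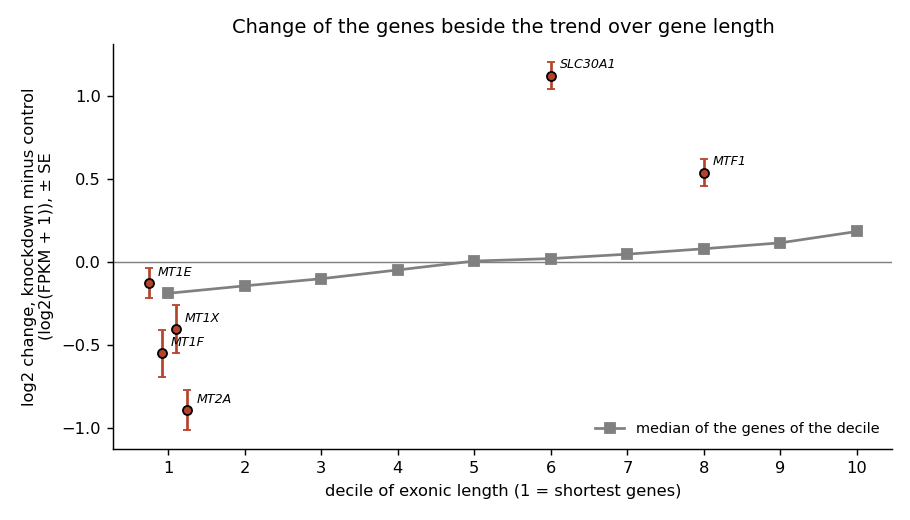
Log2 change (vertical axis) against the decile of exonic length (horizontal axis, 1 = shortest); grey squares are medians of the genes of a decile and red points are single genes ± SE. The medians run from -0.19 to 0.18, MT2A, MT1F and MT1X lie below the median of their decile, and MTF1 and SLC30A1 lie above theirs.

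Of 6 zinc exporters tested (all of the SLC30 family, from 11 listed that include TMEM163), 4 rose and 0 fell. The median log2 change was 0.23 against 0.01 over all genes, of which 29.5% were called higher and 27.8% lower. With libraries rescaled to a common sum, 5 exporters were higher and 0 lower, with a median of 0.37 against 0.14 over all genes. In that scaling 4864 of the 11214 genes were higher and 1838 lower. The calls of SLC30A6 and SLC30A9 were each lost when a single control library was left out, and that of SLC30A7 was not checked in this way. Next to SLC30A1 the changes were small. SLC30A6, a partner in loading zinc into the Golgi, was at 7.62 ± 0.829 FPKM in knockdown libraries, against 6.08 ± 0.616 FPKM in controls (limma adjusted p = 0.0187, and 0.0821 without control replicate 1; 0.00276 to 0.0821 over all alternatives). SLC30A9, a mitochondrial zinc transporter, was at 9.59 ± 0.916 FPKM in knockdown libraries, against 7.95 ± 0.304 FPKM in controls (limma adjusted p = 0.0150, and 0.0593 without control replicate 2; 0.00208 to 0.0593 over all alternatives). Of 11 zinc importers tested (SLC39 family; 14 listed), 5 rose and 4 fell, with a median of -0.05. With the common sum, 5 importers were higher and 2 lower, with a median of 0.11 against 0.14 over all genes.

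The largest change among the importers was that of SLC39A10, which brings zinc in through the plasma membrane and which MTF1 is known to repress in mouse. SLC39A10 was at 1.39, 2.22 and 1.54 FPKM in knockdown libraries and at 5.28, 5.31 and 5.47 FPKM in control libraries. No knockdown value came near the controls (ratio 0.321, log2 change -1.24, SE 0.11, limma adjusted p = 1.00e-05). SLC39A4, the importer mutated in acrodermatitis enteropathica, rose to 6.45 ± 1.11 FPKM in knockdown, against 3.37 ± 0.313 FPKM in control libraries (log2 change 0.76, limma adjusted p = 2.10e-04). SLC39A2, an importer linked to keratinocyte differentiation, rose to 2.42 ± 0.635 FPKM in knockdown, against 1.14 ± 0.163 FPKM in control libraries (log2 change 0.66, limma adjusted p = 0.00180).

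Of 11 copper handling genes tested, 1 rose, 4 fell and 6 did not pass (median log2 change 0.04), beside 29.5% higher and 27.8% lower among all genes. With a common sum 4 were higher and 3 lower, beside 4864 higher and 1838 lower of all 11214 genes. SOD1, the cytosolic copper-zinc superoxide dismutase, fell to 35.8 ± 2.25 FPKM in knockdown, against 65.8 ± 2.34 FPKM in control libraries (log2 change -0.86, limma adjusted p = 1.60e-06). ATOX1, the chaperone that brings copper to the secretory pathway, fell to 2.88 ± 0.352 FPKM in knockdown, against 5.42 ± 0.171 FPKM in control libraries (log2 change -0.73). COX17, which carries copper towards cytochrome c oxidase, fell to 6.75 ± 0.878 FPKM in knockdown, against 8.95 ± 0.751 FPKM in control libraries (log2 change -0.36).

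Of 13 iron handling genes tested, 4 rose, 4 fell and 5 did not pass (median log2 change 0.07). Among all genes, 29.5% were called higher and 27.8% lower. With a common sum 6 iron handling genes were higher and 4 lower, beside 4864 higher and 1838 lower of all 11214 genes. TFRC, the transferrin receptor, fell to 40.7 ± 5.82 FPKM in knockdown, against 81.0 ± 3.74 FPKM in control libraries (log2 change -0.98, limma adjusted p = 1.14e-05). FTH1, the heavy chain of the iron store ferritin, rose to 651 ± 60.9 FPKM in knockdown, against 463 ± 51.6 FPKM in control libraries (log2 change 0.49, limma adjusted p = 0.00118). FTL, the light chain of ferritin, went the opposite way, with a mean of 493 FPKM in knockdown against 616 FPKM in control libraries. The FTL groups did not overlap (log2 change -0.33, limma adjusted p = 0.00728), and its call was not checked singly over the alternatives. STEAP3, an iron reductase of endosomes, fell to 8.44 ± 0.370 FPKM in knockdown, against 11.8 ± 0.164 FPKM in control libraries (log2 change -0.45). HMOX1, the haem oxygenase gene that metals and oxidants induce, was at 3.84, 2.27 and 2.86 FPKM in knockdown libraries, against 2.25, 1.75 and 2.40 FPKM in controls. Its groups overlapped and it did not pass (log2 change 0.34, limma adjusted p = 0.0564), but it passed as higher with a common sum, with the length trend removed and without knockdown replicate 2 (0.00689 to 0.196 over all alternatives).

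**Figure D4:**
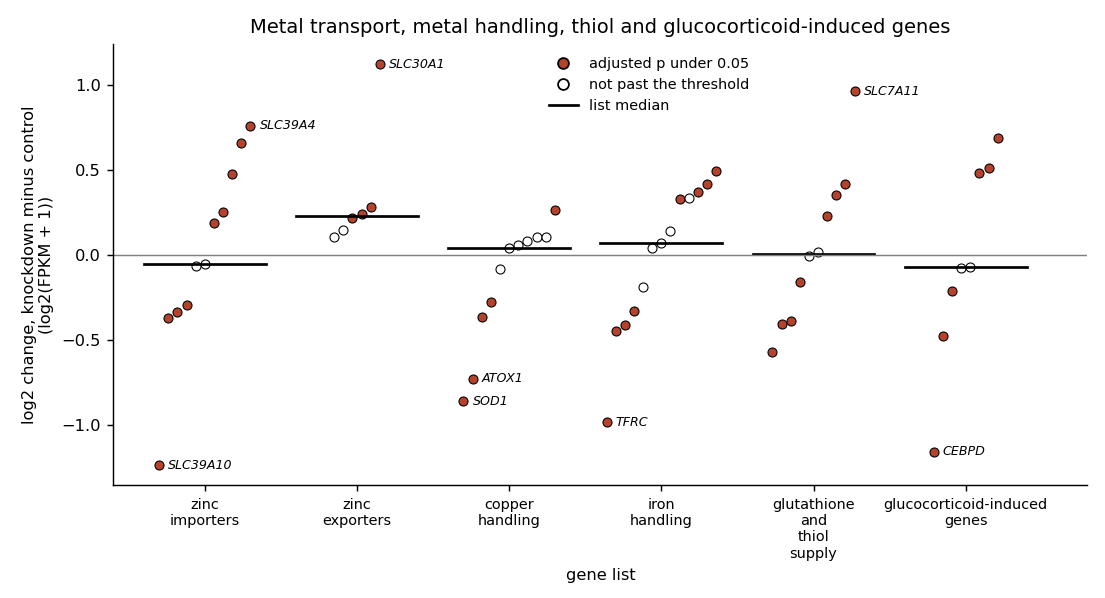
Log2 change (vertical axis, knockdown minus control, log2(FPKM + 1) scale) of the tested members of 6 gene lists (horizontal axis); filled points passed the limma test, open points did not, and lines are list medians. SLC30A1 (1.12) and SLC39A10 (-1.24) stand at opposite ends of the zinc transporters.

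The genes whose values followed those of MT2A most closely were found by Pearson's r of log2(FPKM + 1) over the 6 libraries, among 6841 other genes averaging 5 FPKM or more. They were CLK2, IMP4, R3HDM4, UFC1 and PA2G4, with r from 0.9996 for CLK2 to 0.998 for PA2G4, and all had lower means in the knockdown. For MTF1 the 5 closest were SMC2, RC3H2, CAMSAP2, KHNYN and RIMKLB, each with r of 0.999, and all had higher means in the knockdown. Many genes came nearly as close, since 875 had r over 0.95 with MT2A and 1139 with MTF1, and the order among them carries little weight. Selection by r over both groups also fixes the shared direction of these genes, which is therefore no separate result.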

How the data were processed

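Per the labels' protocols, total RNA was extracted with TRIzol and libraries were made with a TruSeq RNA kit. The authors deposited 1 table of FPKM values per gene for the 6 libraries. HISAT2 2.2.1 and GRCh38 are named in the submitters' processing notes; the counting program, annotation and strand setting are not given in those sources. Every gene had a mean of at least 0.1 FPKM.

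Whole reads were recovered from the FPKM steps for all 12829 genes (tolerance 0.004 reads). A divisor common to all reads of a gene cannot be seen. The comparison used limma 3.58.1 (R 4.3.3) on log2(FPKM + 1), genes averaging 0.5 FPKM or more, group as the only factor, a variance trend, two-sided tests and Benjamini-Hochberg adjustment; IQGAP2, below the filter, was added to the same model. Lengths and coding sequences came from GENCODE v29, and promoters from RefSeq. The scripts were tested on simulated data. Alternatives covered pseudocount, filter, scaling, variance, length, pairing, omitted libraries and voom.

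The members and lists were chosen with earlier results of these data known. Named genes were all members, IQGAP2, SLC30A1, HMOX1 and NR3C1, the 3 largest called changes of each list, and the 5 genes most like MT2A and MTF1. FTL was added beside FTH1, and SLC30A7 as the remaining called exporter.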

Additional observations from a re-analysis of the deposited data

How the results depend on the processing

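MT2A, MT1F, MTF1 and SLC30A1 kept their direction and stayed past the threshold in every alternative run, with log2 changes of -1.002 to -0.67, -0.68 to -0.35, 0.45 to 0.68 and 1.03 to 1.27; MTF1 has no value with genes of at least 5 FPKM only, nor has MT1X. MT1E changed sign with a common sum (0.039, adjusted p = 0.675) and with the length trend removed (0.11, adjusted p = 0.202), and ran from -0.22 to -0.033 when a library was left out, passing only without knockdown replicate 1. MT1X did not pass with a common sum (-0.29), with the length trend removed (-0.21) or with voom on recovered reads (-0.58, adjusted p = 0.0560), and ran from -0.54 to -0.26 when a library was left out. IQGAP2 ran from -0.23 to -0.22 in the same way. Members of the 6 lists called lower numbered 11 with genes of at least 5 FPKM, against 19, since fewer genes were tested. With a common sum 4864 genes were higher and 1838 lower, against 3313 and 3121 as deposited; voom called 3425 higher and 3184 lower. The summed metallothionein level stayed at 0.578 to 0.684 of control. Same-numbered libraries did not deviate together (correlations of -0.07, -0.04 and 0.02 over genes). With 3 libraries per group this cannot exclude that the numbers pair them, and the labels do not say. With the replicate number as a block 3 metallothioneins were again lower, and 3167 genes were higher and 3024 lower. In that fit MT1E was at -0.13 (limma adjusted p = 0.275), and HMOX1 passed (limma adjusted p = 0.0172). For the other changes the cause was not tested. edgeR was planned only for deposited counts and was not run. The recovered reads were fitted with voom instead. Depth limits MT1X and IQGAP2 most.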

Other observations

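Genes of glutathione and thiol supply, the other thiol pool that binds metals, went in both directions. Of 10 tested, 4 rose and 4 fell in the knockdown (median log2 change 0.00), beside 29.5% higher and 27.8% lower among all genes. With a common sum 4 were higher and 3 lower, beside 4864 higher and 1838 lower of all 11214 genes. SLC7A11, the cystine importer, rose to 16.3 ± 2.25 FPKM in knockdown, against 7.80 ± 0.426 FPKM in control libraries (limma adjusted p = 1.41e-05). Thioredoxin (TXN) fell to 323 ± 24.2 FPKM in knockdown, against 479 ± 12.1 FPKM in control libraries (limma adjusted p = 4.34e-05), while its reductase TXNRD1 rose to 55.6 ± 3.24 FPKM, against 41.3 ± 0.917 FPKM in control libraries (limma adjusted p = 9.22e-05).

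Glucocorticoids are known inducers of MT2A, and NR3C1, the glucocorticoid receptor gene, rose in the knockdown, at 16.3, 18.3 and 16.7 FPKM, against 9.27, 8.76 and 8.77 FPKM in control libraries (log2 change 0.87, limma adjusted p = 2.41e-06). Of 8 glucocorticoid-induced genes tested, 3 rose, 3 fell and 2 did not pass (median log2 change -0.07). The shares among all genes were 29.5% higher and 27.8% lower. With a common sum 3 of the list were higher and 2 lower, beside 4864 higher and 1838 lower of all 11214 genes. CEBPD fell to 20.0 ± 1.21 FPKM in knockdown, against 45.9 ± 2.39 FPKM in control libraries. ERRFI1 rose to 49.8 ± 3.86 FPKM in knockdown, against 30.4 ± 0.379 FPKM in control libraries, and TSC22D3 to 24.5 ± 1.07 FPKM, against 16.9 ± 0.104 FPKM in control libraries. The largest adjusted p of these 3 genes in limma was 2.07e-05. Many of these genes also answer to other signals, so the list does not measure receptor activity.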
